A study of Homo sapiens with 4 samples.

Results

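NRF2, encoded by NFE2L2, its inhibitor KEAP1 and 8 enzymes or proteins known as NRF2 targets (NQO1, OSGIN1, SRXN1, ME1, AKR1C1, AKR1C2, AKR1C3 and AKR1B10) were followed in Hs578T cells that overexpressed the transcription factor TFCP2L1. The 10 genes were taken by symbol from a table of 60664 genes, and all 10 passed the filter on low counts. Hs578T is an established breast carcinoma line, triple-negative and mesenchymal in character. RNA was sequenced in 4 libraries, 2 of cells labelled as overexpressing TFCP2L1 and 2 of cells labelled as the empty group, both in the same line. The control columns of the deposited table carry the name FLAG. The labels name neither the vector nor any selection, and are silent on whether the libraries of each condition were grown apart. The p-values therefore cover the spread of these 4 libraries alone, perhaps a technical one. Any unlabelled batch that ran along the groups cannot be told apart from the overexpression.

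NRF2 is a basic leucine zipper factor that binds antioxidant response elements together with small MAF proteins. In unstressed cells KEAP1 tethers it to the CUL3 ubiquitin ligase, which sends it to the proteasome. Electrophiles modify cysteines of KEAP1, NRF2 then escapes, and genes for quinone reduction, glutathione synthesis, thiol repair, NADPH supply and carbonyl reduction are switched on. Much of this control acts on the protein, which was not measured here. In breast and other cancers the NRF2 programme is known for resistance to oxidants, to drugs and to lipid peroxidation.

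The libraries held 23755664 and 26355502 estimated counts with TFCP2L1 and 23304022 and 18960674 in the empty group. TFCP2L1 itself stood at 43.2 and 40.9 TPM (transcripts scaled for length and library size) in overexpressing cells, against 0.08 and 0.15 TPM in empty cells, so all 4 libraries went with their labels. Of 7 markers chosen for a mesenchymal breast line 6 were at or over 1 TPM in all 4 libraries, and THY1 stayed under that level. Of 8 luminal markers 2 reached it in all libraries, GATA3 and ERBB2, and PGR was listed at 0 throughout. The luminal sum was 39.6 to 42.0 TPM with TFCP2L1 and 23.6 to 26.2 TPM in empty cells, most of it ERBB2. The endothelial sum was 3.22 to 3.74 TPM with TFCP2L1 and 9.53 to 12.6 TPM in empty cells, most of it PECAM1. No hematopoietic marker reached 1 TPM in all libraries. Whether these marker differences play a part in the results was not tested.

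Of the 10 genes, 3 rose, 2 fell and 5 did not pass the test. NFE2L2, OSGIN1 and SRXN1 were higher with TFCP2L1, while AKR1C1 and AKR1C2 were lower. KEAP1, NQO1, ME1, AKR1C3 and AKR1B10 were not called. A gene was called at a Benjamini-Hochberg adjusted p under 0.05 over all 16544 genes tested with edgeR's quasi-likelihood test, and fold changes are overexpression over empty. By that rule 47.5% of all tested genes were called, 23.5% higher and 23.9% lower, so a count of 5 in 10 is close to the background and says nothing particular about these genes as a set. In CPM, counts scaled by TMM-adjusted library size, the groups did not overlap for 8 of the 10 genes, against 73.7% of all tested genes.

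**Figure D1:**
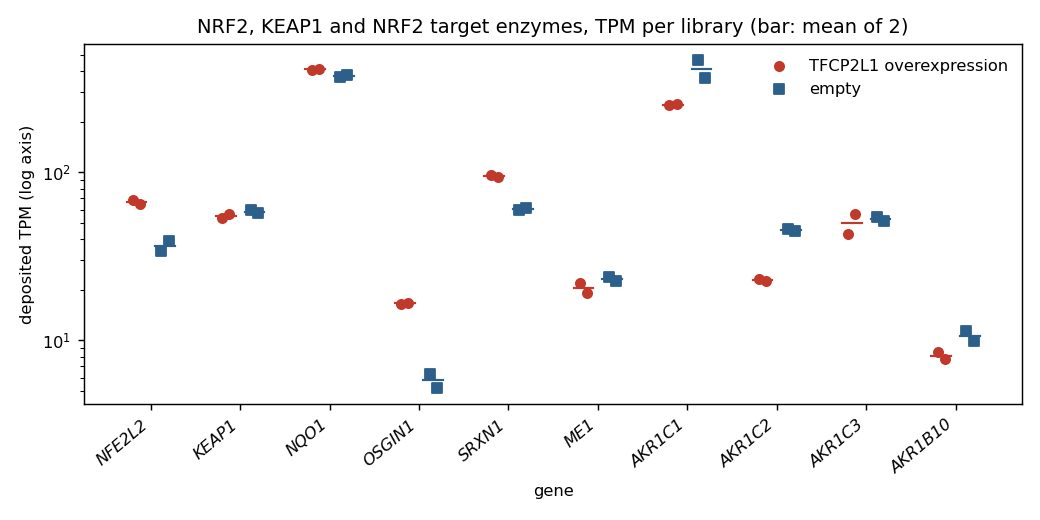
Deposited TPM of the 10 genes in each library on a log axis, red circles for the 2 overexpressing and blue squares for the 2 empty libraries, with a bar at each group's mean. NFE2L2, OSGIN1 and SRXN1 lie higher with TFCP2L1, AKR1C1 and AKR1C2 lie lower, and NQO1 and AKR1C1 are the 2 most abundant in all 4 libraries.

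NFE2L2 (ENSG00000116044; GRCh38, chromosome 2, 177227595 to 177392697, minus strand), the gene of NRF2 itself, measured 68.4 and 64.8 TPM in overexpressing cells, against 34.0 and 39.1 TPM in empty cells. Both overexpressing libraries lay well above both empty ones. In CPM it averaged 108.7 ± 0.77 with TFCP2L1 and 59.0 ± 6.37 in empty cells (SD, n = 2 each). The fitted difference was 1.85-fold, a log2 fold change of 0.88 (SE 0.08, edgeR adjusted p = 3.96e-07), and 93.4% of all tested genes had a lower log2 fold change. In bulk RNA, more cells that express a gene and more RNA per cell cannot be told apart. Exons of NFE2L2 overlap those of AGPS on the other strand in the GENCODE annotation. Whether counting used strand is unknown here, so reads from the overlap cannot be told apart, but AGPS was not called (102.4 CPM with TFCP2L1, 103.8 CPM in empty cells).

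KEAP1 (ENSG00000079999; chromosome 19, 10486120 to 10503741, minus strand), the adaptor that hands NRF2 to the ligase, stood at 53.3 and 56.8 TPM with TFCP2L1, against 59.4 and 57.0 TPM in empty cells. In CPM the libraries overlapped. Its log2 fold change was -0.03 (SE 0.07, edgeR adjusted p = 0.773), with a 95% interval of -0.17 to 0.12. Per transcript length, NFE2L2 exceeded KEAP1 in both overexpressing libraries, and KEAP1 exceeded NFE2L2 in both empty libraries.

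OSGIN1 (ENSG00000140961; chromosome 16, 83948282 to 83966332, plus strand), an oxidative stress induced growth inhibitor, had the largest difference of the 10 genes. It reached 16.6 and 16.7 TPM in overexpressing cells, against 6.34 and 5.21 TPM in empty cells. As estimated counts these were 459 and 554 with TFCP2L1 and 142 and 124 in empty cells. The log2 fold change was 1.68 (SE 0.13, edgeR adjusted p = 7.05e-08), a 3.20-fold difference, and 98% of tested genes had a lower one. It remained called under all 14 alternative settings.

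SRXN1 (ENSG00000271303; chromosome 20, 646615 to 653370, minus strand) encodes sulfiredoxin, which repairs overoxidised peroxiredoxins. It measured 96.6 and 93.9 TPM with TFCP2L1, against 59.8 and 61.7 TPM in empty cells, with a wide gap between the groups and little spread within them. By the fit SRXN1 differed by a log2 fold change of 0.66 (SE 0.06, edgeR adjusted p = 6.07e-07), or 1.58-fold. In the annotation a read-through gene shares exons with SRXN1, and another shares exons with OSGIN1. Neither passed the filter on low counts.

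NQO1 (ENSG00000181019; chromosome 16, 69706996 to 69726951, minus strand), the quinone reductase that is the usual reporter of NRF2 activity, was abundant in every library. It stood at 409.5 and 410.6 TPM with TFCP2L1, against 371.5 and 379.7 TPM in empty cells. Both overexpressing libraries were slightly above both empty ones. Its log2 fold change was 0.14 (SE 0.06) with a 95% interval of 0.02 to 0.26, and the edgeR adjusted p of 0.0581 missed the threshold. The authors' deposited table gave NQO1 an adjusted p of 0.051. The call turned to higher without overexpression replicate 1 (adjusted p = 0.0018), without a filter (adjusted p = 0.027) and with DESeq2 (adjusted p = 0.0498), and over all alternatives the adjusted p ran from 0.0018 to 0.324. The fitted difference was 1.10-fold.

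ME1 (ENSG00000065833; chromosome 6, 83210389 to 83431071, minus strand), the cytosolic malic enzyme that yields NADPH, had 21.9 and 19.3 TPM in overexpressing cells, against 23.8 and 22.6 TPM in empty cells. The groups lay next to each other without overlap. For ME1 the log2 fold change was -0.16 (SE 0.08, edgeR adjusted p = 0.0989), with a 95% interval of -0.33 to 0.003. Without overexpression replicate 1 it was called lower (-0.21, adjusted p = 0.0366, the lowest over the alternatives, the highest being 0.452).

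**Figure D2:**
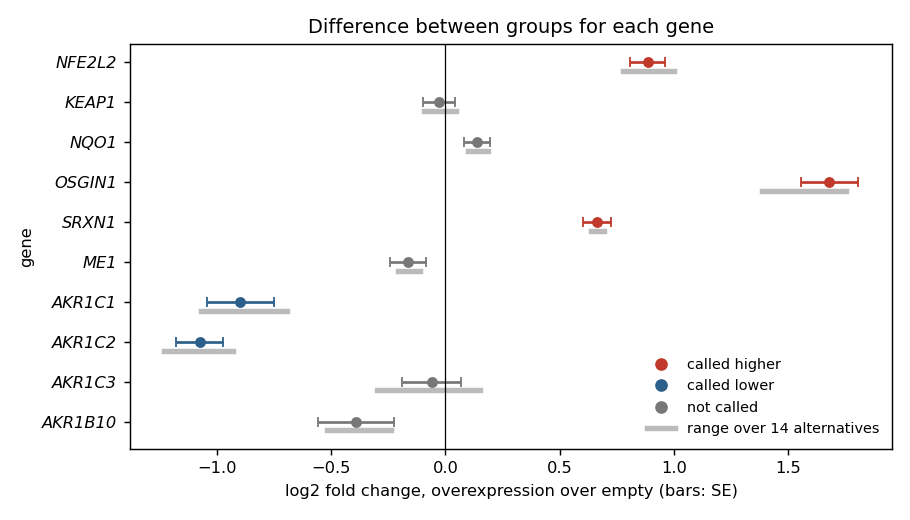
Log2 fold change, overexpression over empty, of the 10 genes with SE bars, coloured by call, and in grey the range over 14 alternative settings. OSGIN1 at 1.68, NFE2L2 at 0.88 and SRXN1 at 0.66 lie right of 0, AKR1C1 at -0.90 and AKR1C2 at -1.07 lie left of it, and the grey bars of KEAP1 and AKR1C3 cross it.

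The upstream sequences of OSGIN1 and ME1 are shown because they are the pair of target genes whose RefSeq promoter window holds a TGACTCA core, and of these OSGIN1 rose while ME1 was not called. The 250 bases before the start are given from RefSeq (GRCh38.p14), OSGIN1 at chr16:83952990-83953239 on the plus strand and ME1 at chr6:83431052-83431301 on the minus strand. Capitals mark matches to TGACNNNGC, the core of the antioxidant response element, or to TGANTCA, the AP-1 type core that can lie inside it.
OSGIN1: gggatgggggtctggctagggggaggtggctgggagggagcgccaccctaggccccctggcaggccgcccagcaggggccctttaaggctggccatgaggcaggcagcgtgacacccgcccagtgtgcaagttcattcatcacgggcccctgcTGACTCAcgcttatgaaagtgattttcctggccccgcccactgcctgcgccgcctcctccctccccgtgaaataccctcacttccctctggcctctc
ME1: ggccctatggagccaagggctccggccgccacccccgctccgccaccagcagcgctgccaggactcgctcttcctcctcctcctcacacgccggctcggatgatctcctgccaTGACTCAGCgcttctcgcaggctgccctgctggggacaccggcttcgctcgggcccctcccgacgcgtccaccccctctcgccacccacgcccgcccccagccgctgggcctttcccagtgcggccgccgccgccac
In ME1 the match TGACTCAGC begins 137 bases before the start and holds both motifs. In OSGIN1 the match TGACTCA begins 97 bases before the start and has TGANTCA alone. Windows of 300 bases (250 before to 50 after a start) were searched on both strands for 9 of the 10 genes, 12 windows in all. TGACNNNGC was present in 2 of them, of ME1 and KEAP1, and in 13.3% of all 35116 windows. TGANTCA, added after the sequences were seen, was present in 2 of them and in 7.71% of all windows. A match describes letters only, and elements further from the start were not searched.

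AKR1C1, AKR1C2 and AKR1C3 lie side by side on chromosome 10 and encode aldo-keto reductases that act on ketosteroids, prostaglandins and aldehydes. AKR1C1 reduces progesterone, AKR1C2 inactivates dihydrotestosterone, and AKR1C3 forms testosterone and prostaglandin F. AKR1C1 and AKR1C2 were lower with TFCP2L1 while AKR1C3 was not called. The coding sequences are shown by numbers: each has 972 bases, AKR1C1 and AKR1C2 are identical at 98% of them, and AKR1C1 and AKR1C3 at 91.5%. Of all 50-base stretches of the AKR1C1 coding sequence 51.8% occur unchanged in AKR1C2 transcripts, and 14.6% in AKR1C3 transcripts. At 150 bases these shares are 4.98% and 0%. The read length is unknown here, so how far reads were divided between the copies is uncertain.

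AKR1C1 (ENSG00000187134; 4963253 to 4983283, plus strand) measured 252.6 and 254.0 TPM with TFCP2L1, against 464.2 and 364.7 TPM in empty cells. The overexpressing libraries were nearly equal and both lay below the empty ones, which differed between themselves. In CPM AKR1C1 averaged 244 ± 19.6 with TFCP2L1 and 455 ± 83.5 in empty cells (SD, n = 2 each). The log2 fold change was -0.90 (SE 0.15, edgeR adjusted p = 0.00833). The call was lost when either overexpressing library was left out (-0.81 with adjusted p = 0.295 without replicate 1, -0.98 with adjusted p = 0.258 without replicate 2). Those are the highest adjusted p over the alternatives, and the other 12 kept the call.

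AKR1C2 (ENSG00000151632; 4987400 to 5018031, minus strand) stood at 23.1 and 22.4 TPM in overexpressing cells, against 46.0 and 44.5 TPM in empty cells. The groups were far apart relative to the spread within them. For AKR1C2 the log2 fold change was -1.07 (SE 0.10, edgeR adjusted p = 9.97e-07), and it was called lower under all 14 alternatives. AKR1C3 (ENSG00000196139; 5035354 to 5107686, plus strand) had 43.2 and 56.1 TPM in overexpressing cells, against 54.2 and 51.4 TPM in empty cells. Here the overexpressing libraries lay on both sides of the empty ones. The log2 fold change was -0.06 (SE 0.13, edgeR adjusted p = 0.74; 95% interval -0.35 to 0.23). It was 0.15 without overexpression replicate 1 and -0.30 without replicate 2, where it was called lower (adjusted p = 0.0116, with a range of 0.0116 to 0.941 over the alternatives).

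Summing AKR1C1 to AKR1C4 sets aside how reads were divided among these 4 genes. Reads that the unknown counter dropped or gave to other genes are not recovered by it. AKR1C4, a liver enzyme, had 0 and 2 counts with TFCP2L1 and 3 and 1 in empty cells and adds little. The sum was 279 and 322 CPM in overexpressing libraries, against 597 and 473 CPM in empty libraries. Fitted as 1 row in place of the 4 genes, it had a log2 fold change of -0.83 (SE 0.14, edgeR adjusted p = 0.00575). This fit was not repeated with a library left out. AKR1C1 made up 82.6% and 80.2% of the sum with TFCP2L1, against 86.0% and 83.6% in empty cells. The sum therefore mostly follows AKR1C1 and does not show whether AKR1C2 fell by itself. AKR1C3 made up 10.7% and 12.7% of the sum with TFCP2L1, against 6.31% and 7.59% in empty cells, while AKR1C2 made up 6.65% and 7.08% with TFCP2L1 and 7.63% and 8.78% in empty cells. The shares did not overlap between groups for either gene, but with 2 libraries a group an exact permutation test cannot give a p below 0.33, so the difference in response between AKR1C3 and its neighbours was not shown by a test.

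**Figure D3:**
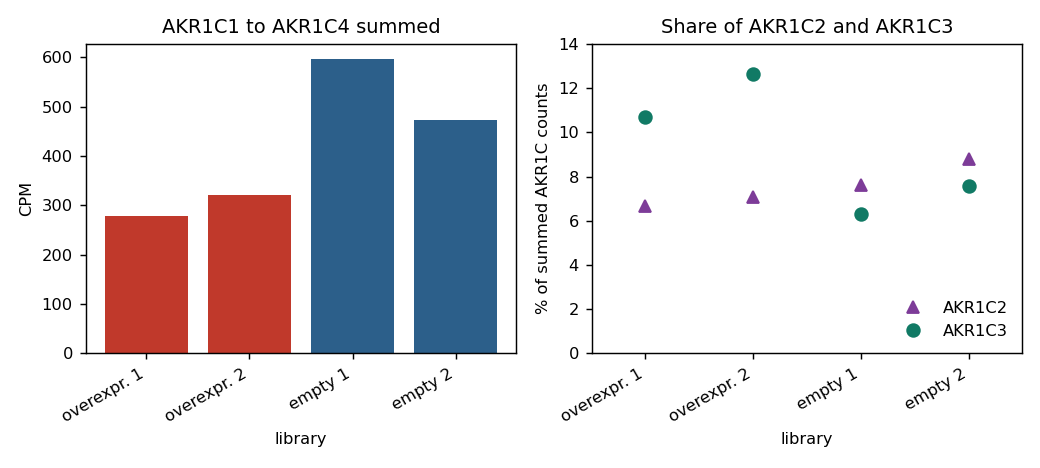
Left, CPM of AKR1C1 to AKR1C4 summed in each library, overexpressing libraries in red and empty ones in blue. Right, the percent of that sum assigned to AKR1C2 (triangles) and AKR1C3 (circles): AKR1C3 holds 10.7% and 12.7% with TFCP2L1 and 6.31% and 7.59% in empty cells.

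The sequences before the starts of the AKR1C genes are shown because the pair that fell has nearly the same one and AKR1C3 has another. Whether these sequences play a part in the expression values was not tested. All are on chromosome 10 of GRCh38.p14 in RefSeq, AKR1C1 at chr10:4963165-4963414 on the plus strand, AKR1C2 at chr10:5003858-5004107 on the minus strand, and AKR1C3 at chr10:5094164-5094413 on the plus strand, the second of its listed starts. Capitals mark bases that differ from AKR1C1 in the alignment.
AKR1C1: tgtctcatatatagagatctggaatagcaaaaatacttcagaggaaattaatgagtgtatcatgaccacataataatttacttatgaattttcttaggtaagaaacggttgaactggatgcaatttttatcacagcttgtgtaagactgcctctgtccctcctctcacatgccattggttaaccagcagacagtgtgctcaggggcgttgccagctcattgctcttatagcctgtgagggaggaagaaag
AKR1C2: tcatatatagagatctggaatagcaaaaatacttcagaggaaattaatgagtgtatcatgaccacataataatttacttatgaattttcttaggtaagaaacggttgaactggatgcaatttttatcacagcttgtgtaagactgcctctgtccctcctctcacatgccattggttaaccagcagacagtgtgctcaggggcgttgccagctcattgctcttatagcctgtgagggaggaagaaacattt
AKR1C3: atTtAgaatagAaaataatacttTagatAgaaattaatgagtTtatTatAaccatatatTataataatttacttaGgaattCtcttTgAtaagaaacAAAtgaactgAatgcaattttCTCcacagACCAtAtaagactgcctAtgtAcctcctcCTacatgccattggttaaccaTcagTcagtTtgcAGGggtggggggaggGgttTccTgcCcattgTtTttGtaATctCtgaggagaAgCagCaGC
Over the whole 300-base windows AKR1C1 and AKR1C2 were 98.6% identical at aligned bases, with 4 differing bases, all past the start, and 4 gap positions. AKR1C1 and the printed start of AKR1C3 were 79.5% identical, with 58 differing bases, 50 of them before the start. The window of the first listed AKR1C3 start, not printed, was 78.0% identical to AKR1C1, with 64 differing bases. None of these windows held TGACNNNGC or TGANTCA.

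AKR1B10 (ENSG00000198074; chromosome 7, 134527592 to 134541408, plus strand), which reduces retinal and other aldehydes, was the least abundant enzyme of the group with TFCP2L1. It had 8.54 and 7.69 TPM in overexpressing cells, against 11.4 and 9.87 TPM in empty cells. Its estimated counts were fractional, 142.35 and 153.42 with TFCP2L1 and 196.75 and 131.71 in empty cells. The coding sequences of AKR1B10 and its more abundant relative AKR1B1 were 77.1% identical at aligned bases. How far reads were divided between relatives is uncertain here too. In TPM and CPM, though not in unscaled counts, the groups did not overlap for AKR1B10. Its log2 fold change of -0.39 (SE 0.17, edgeR adjusted p = 0.0655, 95% interval -0.75 to -0.04) did not pass. Without empty replicate 2 it was called lower (-0.52, adjusted p = 0.0496), and over the alternatives the adjusted p reached 0.443.

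In TPM the order with TFCP2L1 was NQO1, AKR1C1, SRXN1, NFE2L2, KEAP1, AKR1C3, AKR1C2, ME1, OSGIN1 and AKR1B10, by group means. In empty cells it was AKR1C1, NQO1, SRXN1, KEAP1, AKR1C3, AKR1C2, NFE2L2, ME1, AKR1B10 and OSGIN1. Neighbours in these orders overlapped in 1 case each. With TFCP2L1 they were KEAP1 at 55.0 ± 2.45 TPM and AKR1C3 at 49.7 ± 9.11 TPM, and in empty cells AKR1C1 at 414 ± 70.4 TPM and NQO1 at 376 ± 5.76 TPM (SD, n = 2 each).

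Counts and TPM can part where the mix of transcripts of a gene changes, since the authors' TPM also divide by a length. The estimated count per TPM, scaled by its median over 12524 genes, followed that length. For AKR1C1 this relative length was 0.91 and 0.96 with TFCP2L1, against 1.08 and 1.06 in empty cells, a log2 difference of -0.20 that was larger in size than in 88.5% of those genes. The log2 ratio of mean TPM of AKR1C1 was accordingly -0.71, nearer to 0 than the -0.90 of the counts. For OSGIN1 the relative length was 1.02 and 1.06 with TFCP2L1 and 0.83 and 1.09 in empty cells, so the empty libraries differed most. For AKR1C2 the relative length was 0.88 and 1.055 with TFCP2L1 and 1.065 and 1.003 in empty cells, so the overexpressing libraries differed most. Its log2 difference was -0.098, larger in size than in 71.8% of those genes. For KEAP1 the log2 difference was 0.039. For NFE2L2, NQO1, SRXN1, ME1, AKR1C3 and AKR1B10 it was within 0.01 of 0.

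The 10 genes lie on 7 chromosomes, and of these only the AKR1C genes are neighbours. Of 7 other tested genes with a start within 500 kb of AKR1C2, 1 was higher and 4 were lower, AKR1C1 among them. The outer ones are named after their values were seen. Nearest on one side were AKR1C7P, a pseudogene of the family, at 0.12 CPM with TFCP2L1 and 1.03 CPM in empty cells (log2 fold change -3.03, edgeR adjusted p = 0.0015), and TUBAL3, a tubulin-like gene, at 0.22 CPM with TFCP2L1 and 0.79 CPM in empty cells (-1.84, edgeR adjusted p = 0.0112). Both were called lower from low levels. Beyond them lay NET1, a RhoA exchange factor and the 1 gene of these 7 called higher, with a log2 fold change of 0.18 (edgeR adjusted p = 0.0334). Measured from AKR1C3, 2 of 8 such genes were higher and 5 lower. The further riser was CALML3-AS1, an antisense gene beyond NET1, at 0.75 CPM with TFCP2L1 and 0.02 CPM in empty cells (log2 fold change 4.69, edgeR adjusted p = 0.00086). On the other side the long noncoding gene MANCR was lower at -0.61 (edgeR adjusted p = 0.000135), and LINC00705 was not called. Around KEAP1, 7 of 37 tested genes were higher and 13 lower while KEAP1 itself was not called. Over all tested genes 47.5% were called, 23.5% higher and 23.9% lower. Whether position plays a part in these counts was not tested.

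Among 88 other genes of the pathway, 78 were tested, 37 of them higher (47.4%) and 14 lower (17.9%), with a median log2 fold change of 0.13. Over all tested genes 23.5% were higher and 23.9% lower, with a median of -0.002. The lists were chosen with earlier results of these data known, so they are no independent evidence of a direction.

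Glutathione genes were mostly higher, 9 of 15 tested, with 3 lower and a median log2 fold change of 0.36. GCLC and GCLM, the catalytic and modifier subunits of the enzyme that limits glutathione synthesis, rose side by side. GCLC had 34.5 and 32.7 TPM with TFCP2L1, against 19.2 and 20.7 TPM in empty cells (log2 fold change 0.82, SE 0.07, edgeR adjusted p = 5.91e-07), and GCLM 33.2 and 31.0 TPM with TFCP2L1, against 17.1 and 15.5 TPM in empty cells (0.83, SE 0.07, edgeR adjusted p = 4.24e-07). SLC7A11, the cystine carrier, had a log2 fold change of 1.28. In the thioredoxin list 3 of 4 were higher and 0 lower, PRDX6, TXNRD1 and TXN, at 1.17, 0.53 and 0.38. The unadjusted p of the gene not called there, PRDX1, was 0.106.

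Heme and iron genes were higher in 5 of 7 cases and lower in 1. HMOX1, heme oxygenase, reached 137.8 and 125.8 TPM with TFCP2L1, against 27.2 and 31.5 TPM in empty cells (log2 fold change 2.19, SE 0.08, edgeR adjusted p = 4.90e-11). BLVRB, biliverdin reductase B, had a log2 fold change of 1.09, while FTH1, the ferritin heavy chain, was lower at -1.18. Detoxification and efflux genes were higher in 11 of 18 cases and lower in 3. TRIM16L and TRIM16, near-identical copies whose separate values are uncertain, were higher at 1.19 and 0.94, and CES1, a carboxylesterase, was lower at -2.00. Of 5 NADPH-supplying genes 2 were higher and 2 lower. TALDO1 and TKT, of the non-oxidative pentose phosphate branch, were higher, with log2 fold changes of 0.76 and 0.41.

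Relatives of the target enzymes went both ways, with 3 of 8 tested higher (37.5%) and 2 lower (25%). Over all tested genes 23.5% were higher and 23.9% lower, so counts this small say nothing particular about the list. AKR1B1, aldose reductase, was far more abundant than its relative AKR1B10 and fell to 1072 and 1135 TPM with TFCP2L1, against 3726 and 3199 TPM in empty cells (log2 fold change -1.66, SE 0.08, edgeR adjusted p = 1.99e-08). ME3, a mitochondrial malic enzyme, was lower as well at -1.97. NQO2, the relative of NQO1, was higher at 0.84, with 63.0 and 68.6 TPM in overexpressing cells, against 36.3 and 38.9 TPM in empty cells.

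Of the regulators and partners of NRF2, 4 of 21 tested were higher (19%) and 3 lower (14.3%), with a median of -0.05. Both shares lay below those over all tested genes, 23.5% higher and 23.9% lower. BACH1, which competes with NRF2 for the same elements and represses them, was lower at -0.46 (SE 0.09, edgeR adjusted p = 0.00118). BTRC, a receptor of the ligase that removes NRF2 independently of KEAP1, was lower at -0.52 (SE 0.09, edgeR adjusted p = 0.000258). NFE2L1, a related factor, was higher at 0.27. CUL3, the scaffold that KEAP1 works with, was not called, at -0.04 (SE 0.07, edgeR adjusted p = 0.656).

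**Figure D4:**
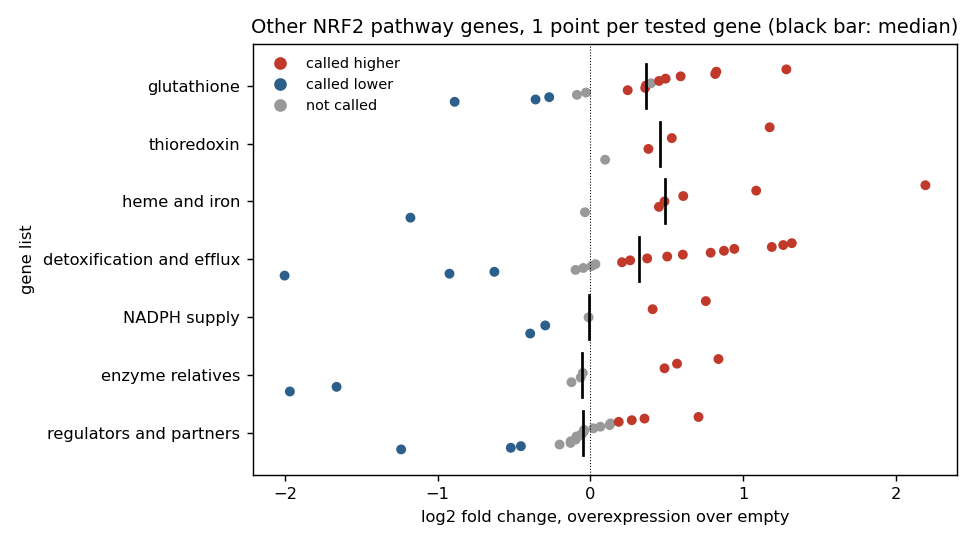
Log2 fold change, overexpression over empty, of each tested gene in 7 lists of other NRF2 pathway genes, coloured by call, with a black bar at each list's median. The medians of the glutathione, thioredoxin, heme and iron, and detoxification lists lie between 0.32 and 0.49, and those of the other 3 lists lie close to 0.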

How the data were processed

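RNA of 4 libraries was measured by RNA-seq. Per the file headers, the authors deposited estimated counts per gene, not normalized, and TPM per library. They also deposited a fold change (a ratio), a log2 fold change, a p-value and an adjusted p-value, all overexpression over control and from DESeq2 by the workbook's name. Bowtie 0.12.2 and the mouse build mm9 stand in the submitters' processing notes, but the gene IDs are human. The aligner, counter, strand setting and annotation are therefore taken as unknown.

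Estimated counts were rounded and fitted over all genes with edgeR 4.0.16 in R 4.3.3 (TMM factors 0.995 to 1.005, filterByExpr with minimum count 10, robust glmQLFit, glmQLFTest, Benjamini-Hochberg). Each SE is the absolute log2 fold change divided by the root of F. Total counts were 18960674 to 26355502 per library, and the spread between libraries also entered each SE. Same-group libraries were kept as 2 samples, since their chi-square per degree of freedom (5.84 with TFCP2L1, 3.23 in the empty group) exceeded counting noise. Positions and coding sequences came from GENCODE 29 and promoters from RefSeq, aligned with Biopython 1.88. The script was tested on simulated data.

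The members and lists were chosen with earlier results of these data known. Named genes are the 10 members, TFCP2L1 and up to 3 called genes of each list, smallest p first, of which 1 is not reported here; AGPS, PRDX1, CUL3, AKR1C4, NET1 and MANCR were added afterwards. Alternatives were RLE, upper-quartile and library-size scaling, TMM that omits TFCP2L1 and the top 10 genes, 2 other filters, DESeq2 1.42.0, limma-voom (limma 3.58.1), an adjusted p under 0.01, limma on log2(TPM + 1), leaving out each library and summing the AKR1C genes. A comparison of proteins was not made.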

Additional observations from a re-analysis of the deposited data

How the results depend on the processing

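NFE2L2, OSGIN1, SRXN1 and AKR1C2 kept their direction and call under all 14 alternatives, with log2 fold changes of 0.78 to 1.00, 1.38 to 1.75, 0.63 to 0.69 and -1.23 to -0.93. Leaving out 1 library at a time gave -1.07 to -0.69 for AKR1C1, 0.10 to 0.19 for NQO1, -0.21 to -0.11 for ME1, -0.52 to -0.24 for AKR1B10, -0.093 to 0.047 for KEAP1 and -0.30 to 0.15 for AKR1C3, and each of these 6 changed its call or its sign in at least 1 such fit. The lone library of an arm is then assumed to vary like the other group. NQO1 was called at 0.17 without a filter and at 0.15 with DESeq2, and KEAP1 was 0.0053 without a filter. AKR1C3 takes the value -0.83 when the AKR1C genes are summed, by construction. Except for that, the cause of these changes was not tested. Over all genes 3894 were higher and 3962 lower, and 788 and 1511 where an absolute log2 change of 1 was also required. Of the 10 genes, OSGIN1 and AKR1C2 alone have a log2 fold change of that size. Under the settings without this minimum 3 or 4 of the 10 were called higher and 2 or 3 lower, though not always the same genes. No paired analysis was possible because the labels give the libraries of the groups no shared replicate number. Intervals rest on 2 libraries a group.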
